A study of Mus musculus with 12 samples.

Results

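AtT-20 cells, a mouse pituitary tumour line used as a model of the corticotrope, were compared after stable expression of the Pax7 isoform Q-GL- or of its paralogue Pax3. The comparison rests on 4 of the 12 RNA-Seq libraries analysed, 2 of Q-GL- cells and 2 of Pax3 cells, taken by their sample labels. It asks how the transcriptome differs between cells that carry a GL- form of Pax7 and cells that carry the related factor, which is GL- as well. The table lists 16385 genes, of which the 12067 with at least 1 FPKM in at least 2 of the 4 libraries were tested. FPKM, the unit of the deposited values, is the number of sequenced fragments of a gene scaled to the length of its transcript and to the total of the library.

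Q-GL- cells expressed a Pax7 without the glutamine (Q) and without the glycine-leucine pair (GL) that splicing can add to the paired domain. Pax3 cells expressed Pax3, which has the Q, has no GL and lacks the OAR-containing end of Pax7, so the effects of the Q, of the C-terminus and of the remaining sequence of the proteins cannot be told apart. The methods describe retroviral delivery of the Pax7 constructs from the pLNCX2 vector, with the CMV promoter and Flag tags at both ends, followed by Geneticin selection and pooling of many independent resistant colonies. The Q-GL- population is therefore a mixture of integrations that express the factor from a viral promoter. Whether Pax3 was delivered and tagged in the same way is not given in the sources used here, so an effect of delivery cannot be told apart from one of the factor. All cells were grown in the same serum-containing medium. The table also holds 2 columns headed AtTNeo, a name used for control cells. They match no sample analysed here and were not used, so a gene higher in Q-GL- cells cannot be told apart from a gene lowered in Pax3 cells. The libraries are called biological replicates, but nothing says whether separate infections or cultures gave rise to them. The p-values measure only how far libraries of the same group spread, with the spread of a gene pooled over all 12 libraries.

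Pax3 and Pax7 are paired-domain and homeodomain transcription factors that act together in the skeletal muscle lineage and in the neural crest. In the pituitary, Pax7 sets the identity of melanotropes apart from that of corticotropes: both cell types make the prohormone Pomc, and melanotropes cleave it further with the convertase PC2, encoded by Pcsk2. Pax7 is known there as a pioneer factor, one that opens closed chromatin at enhancers, whereas Pax3 is not normally expressed in the pituitary.

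The stretches of coding sequence that define Q and GL are shown because they name the proteins compared. They were read from GENCODE M21 transcripts of mouse Pax7 (chromosome 4) and Pax3 (chromosome 1), with the codons in question in capitals. The glutamine codon is codon 108 in both genes and is the codon that the Q-GL- isoform lacks:
Pax7: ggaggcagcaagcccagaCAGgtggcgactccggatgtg
Pax3: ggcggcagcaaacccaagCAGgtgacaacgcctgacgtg
The glycine and leucine codons begin at codon 151 of the GL+ transcript of Pax7, and the GL- transcript of Pax7 and that of Pax3 run on without them:
Pax7 with GL: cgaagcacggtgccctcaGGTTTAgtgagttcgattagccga
Pax7 without GL: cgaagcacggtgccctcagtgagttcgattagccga
Pax3: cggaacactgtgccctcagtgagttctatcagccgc
Over the 150 codons before this site, the GL- transcript of Pax7 and that of Pax3 shared 82.2% of the bases and encoded the same residue at 93.3% of the codons. The open reading frame had 503 codons in this Pax7 transcript and 484 codons in Pax3.

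The introduced Pax7 was read at 95.2 and 93.9 FPKM in Q-GL- cells, against 0.159 and 0.161 FPKM in Pax3 cells, as the labels state. The Pax3 gene is not analysed here, so the level of its transcript is not given. Tbx19, which encodes Tpit, the factor that both Pomc lineages require, was at 117 and 116 FPKM in Q-GL- cells and at 119 and 134 FPKM in Pax3 cells (log2 fold change -0.12, SE 0.08, limma adjusted p = 0.51). Few markers of other cells could be read. Of 11 genes of other anterior pituitary hormone cells the table holds 3, which summed to 0.0354 to 0.146 FPKM in Q-GL- libraries and 0.0179 to 0.0358 FPKM in Pax3 libraries, all of it from Nr5a1, while Ghrhr and Lhb were listed at 0. Of 20 markers of blood, endothelial, fibroblast and glial cells the table holds 7, of which Mbp passed the filter, and Pdgfra, Pdgfrb and Csf1r were listed at 0 in the 4 libraries. A gene listed at 0 may not have been quantified. The corticotrope receptor gene Crhr1 was at 0.236 to 0.275 FPKM in Q-GL- libraries and 0.130 to 0.282 FPKM in Pax3 libraries, so this defining marker was near 0 in both groups.

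Summed FPKM was 413794 to 483161 in the 4 libraries, and the lowest values pointed to roughly 17000000 to 20000000 fragments each. Across the genes tested the Q-GL- libraries correlated at r = 0.993 and the Pax3 libraries at r = 0.989, and libraries of different groups at 0.982 to 0.985. The median absolute log2 difference between replicates was 0.0872 in Q-GL- cells and 0.151 in Pax3 cells, so the Pax3 libraries were the less alike. Gm42418, a gene that overlaps ribosomal RNA, was at 190 and 186 FPKM in Q-GL- cells and at 287 and 731 FPKM in Pax3 replicates 1 and 2.

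Of the 12067 genes, 560 passed the test (limma, Benjamini-Hochberg adjusted p under 0.05), or 4.64%. Most were higher in Q-GL- cells: 463 genes (3.84% of those tested) were higher and 97 (0.804%) were lower. The changes were mostly modest, with a median log2 fold change of 0.52 among the genes that rose and -0.52 among those that fell. Fold changes here are on the log2(FPKM + 1) scale, which understates those of low genes. A log2 fold change of at least 1 was reached by 44 of the higher genes (0.365%) and by 1 of the lower genes (0.00829%). The higher share of the calls, 82.7%, depended on the scaling. It was 58.6% after quantile normalization, with 551 higher and 389 lower, and 65.9% after median centring, with 445 higher and 230 lower. The count also leaned on single libraries: 244 and 192 genes passed without replicates 1 and 2 of Q-GL-, and 240 and 770 without replicates 1 and 2 of Pax3. The median log2 fold change of all genes tested was 0.04.

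**Figure D1:**
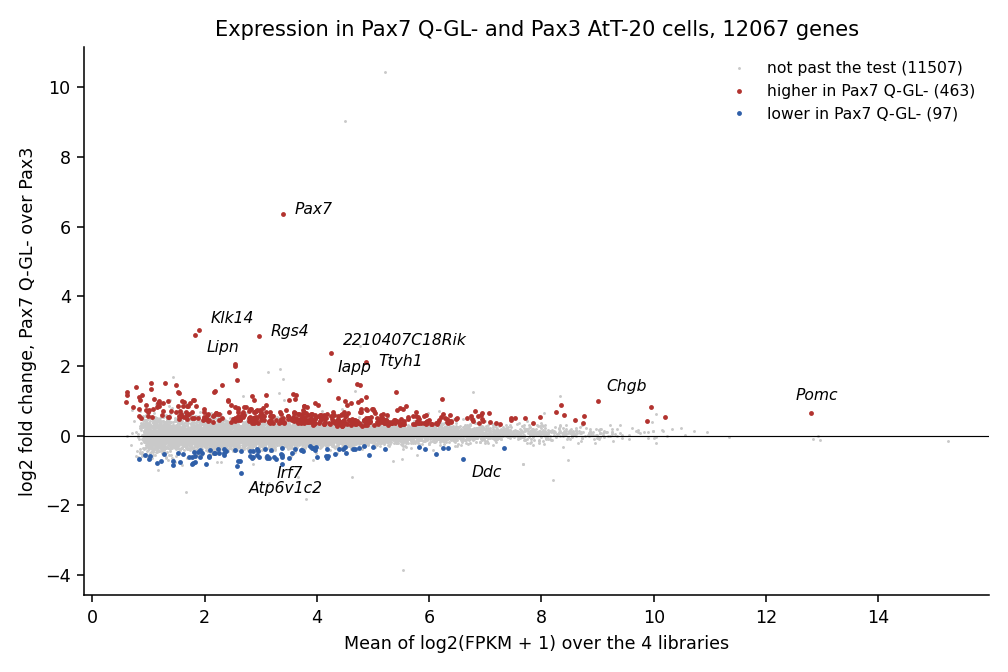
Log2 fold change of Pax7 Q-GL- over Pax3 cells (vertical axis) against the mean of log2(FPKM + 1) over the 4 libraries (horizontal axis), 1 point per gene tested, with 463 genes higher in Q-GL- cells in red, 97 lower in blue and the others in grey. Most red points lie below a log2 fold change of 1, Pax7 itself stands at 6.36, and the grey points above it are the snoRNA genes Snord49b and Gm24494, listed at 0 in both Pax3 libraries.

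After Pax7 itself, the largest increases were in Klk14, Lipn and Rgs4. Klk14 (chr7:43690418-43695536, GRCm38), a kallikrein-related serine protease, was at 9.37 and 9.94 FPKM in Q-GL- cells, against 0.272 and 0.360 FPKM in Pax3 cells. Its log2 fold change was 3.02 (SE, the standard error, 0.16; limma adjusted p = 2.8e-07). Lipn (chr19:34067358-34084918), which encodes a lipase of the acid lipase family, was at 9.05 and 8.39 FPKM in Q-GL- cells and 0.410 and 0.205 FPKM in Pax3 cells (log2 fold change 2.90). Both genes were near the lower end of detection in Pax3 cells and moderately expressed in Q-GL- cells. Rgs4 (chr1:169741477-169747642), a GTPase-activating regulator that shortens G-protein signals, was at 19.9 and 20.5 FPKM in Q-GL- cells, against 1.69 and 2.15 FPKM in Pax3 cells (log2 fold change 2.87, SE 0.10, adjusted p = 6.7e-09).

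Other genes of large increase had at least 1.80 FPKM in each Pax3 library. The unnamed 2210407C18Rik was at 43.8 and 40.7 FPKM in Q-GL- cells and 6.72 and 8.05 FPKM in Pax3 cells. Ttyh1, a chloride channel-like membrane protein, was at 58.7 and 62.3 FPKM in Q-GL- cells and 11.5 and 15 FPKM in Pax3 cells. These correspond to log2 fold changes of 2.37 and 2.12. Apobec2, a member of the cytidine deaminase family best known from muscle, was at 10.7 and 10.6 FPKM in Q-GL- cells, against 2.05 and 1.80 FPKM in Pax3 cells. Iapp, the secreted peptide amylin, was at 32.4 and 30.5 FPKM in Q-GL- cells and 9.93 and 9.61 FPKM in Pax3 cells. Agt, angiotensinogen, was at 45.2 and 43.3 FPKM in Q-GL- cells and 15.2 and 16.0 FPKM in Pax3 cells.

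The rest of the 15 genes with the largest increase spanned several functions. Serpine2, a secreted inhibitor of serine proteases, was at 40.3 and 45.9 FPKM in Q-GL- cells and 15 and 14.6 FPKM in Pax3 cells (log2 fold change 1.48). Lipc, hepatic lipase, was at 2.75 and 2.22 FPKM in Q-GL- cells, against 0.199 and 0.255 FPKM in Pax3 cells. Cabp7, a calcium-binding protein of the calmodulin superfamily, was at 3.33 and 4.08 FPKM in Q-GL- cells, against 0.607 and 0.808 FPKM in Pax3 cells, and the noncoding E330020D12Rik was at 3.34 and 2.96 FPKM, against 0.406 and 0.487 FPKM. In these 15 genes no library of Q-GL- cells overlapped the range of the Pax3 cells, which the rule for naming them required. Across all genes tested, the libraries did not overlap and were higher in Q-GL- cells at 29.7% of genes, and lower at 15.1%. Each of the 15 passed the test in every alternative fit that tested it. However, Pax7, Klk14, Lipn, Lipc, Cabp7 and E330020D12Rik were under 1 FPKM in both Pax3 libraries. They entered the test through the Q-GL- libraries alone, and the fit that required 1 FPKM in all 4 libraries left them out.

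**Figure D2:**
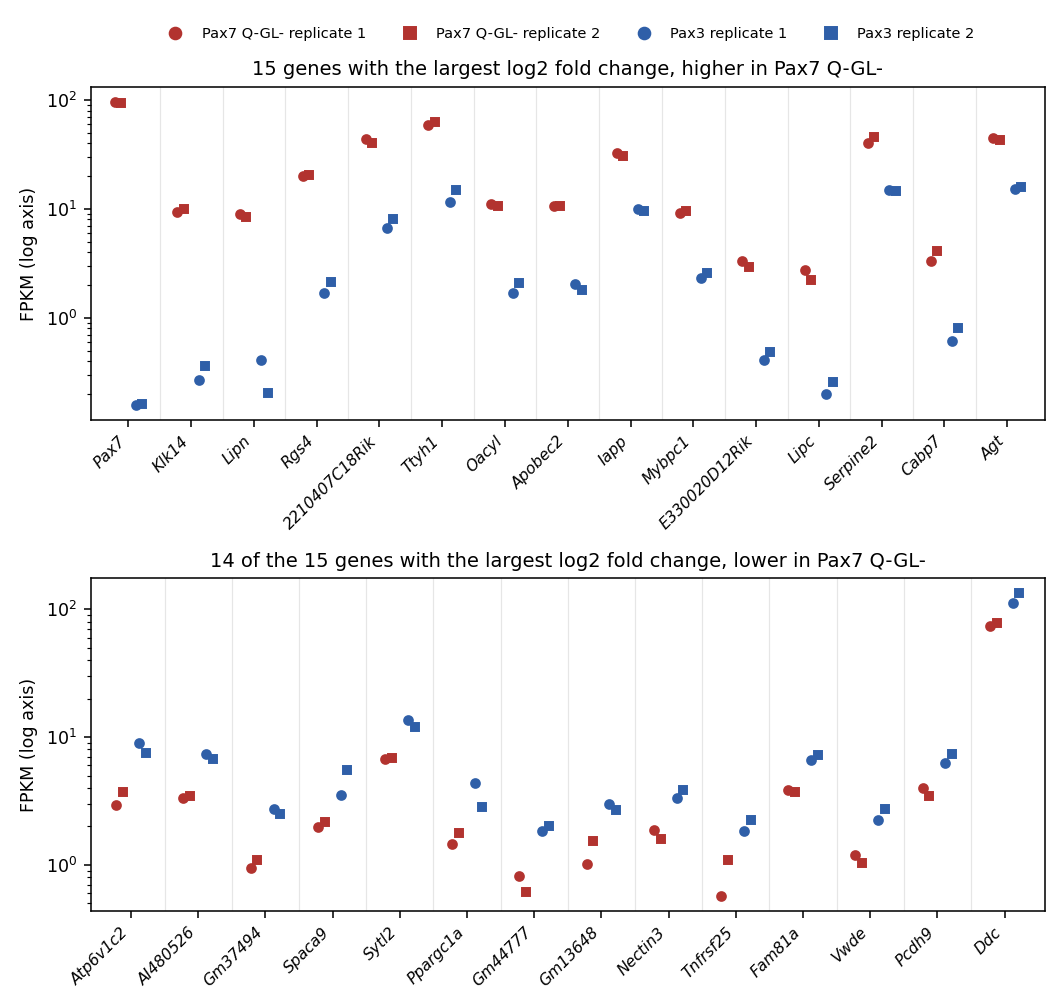
FPKM on a log axis in each library, for the 15 genes past the test with the largest log2 fold change that were higher in Q-GL- cells (upper panel) and for 14 of the 15 that were lower (lower panel). Circles are replicates 1 and squares replicates 2, red for Q-GL- and blue for Pax3. At Klk14 the red points stand at 9.37 and 9.94 FPKM, against 0.272 and 0.360 FPKM for the blue, and the gap is far narrower in the lower panel, where it is widest at Atp6v1c2 on the log2(FPKM + 1) scale.

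Genes that mark melanotropes were higher in Q-GL- cells almost throughout. Of 8 markers tested, 7 rose and 0 fell, beside 3.84% and 0.804% of all genes tested. Their median log2 fold change was 1.41, against 0.04 over all genes tested. Pax7 is among the 8 and reached 1 FPKM in Q-GL- cells alone. Without it, 6 of 7 rose, with a median of 1.25. Pomc, which both cell types make, is among these 6 and is also counted with the corticotrope markers. Members of this list were known from earlier results of these data, so the count is no independent evidence. Oacyl, a putative acyltransferase, was at 11.1 and 10.6 FPKM in Q-GL- cells, against 1.69 and 2.08 FPKM in Pax3 cells (log2 fold change 2.04, SE 0.10, limma adjusted p = 1.3e-07). Mybpc1, a myosin-binding protein of slow muscle that also appears among muscle genes, was at 9.11 and 9.49 FPKM in Q-GL- cells and at 2.33 and 2.56 FPKM in Pax3 cells. Timp2, an inhibitor of matrix metalloproteases, was at 65.8 and 63.1 FPKM in Q-GL- cells and 25.9 and 27.2 FPKM in Pax3 cells (log2 fold change 1.25). The count was 6 when either of the Q-GL- libraries or Pax3 replicate 1 was left out.

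Of 18 genes of prohormone processing tested, 6 rose and 0 fell, beside 3.84% and 0.804% of all genes tested. Their median log2 fold change was 0.19. Pcsk2 is among the 6 and is also counted with the melanotrope markers. Pcsk2 (chr2:143546156-143816285), the PC2 convertase, was at 35.8 and 36.6 FPKM in Q-GL- cells and 17.2 and 18.9 FPKM in Pax3 cells (log2 fold change 0.97, SE 0.07, limma adjusted p = 1.0e-05). Pcsk1, the PC1/3 convertase that corticotropes use, rose as well, with 385 and 391 FPKM in Q-GL- cells and 225 and 259 FPKM in Pax3 cells (log2 fold change 0.68). Scg5, the 7B2 chaperone that PC2 needs to mature, was at 152 and 153 FPKM in Q-GL- cells, against 86.4 and 110 FPKM in Pax3 cells. Pax3 replicate 1 was the lowest of the 4 libraries for all 3 genes. Cpe, the carboxypeptidase that trims the cleaved peptides, did not pass the test, at 625 and 701 FPKM in Q-GL- cells and 491 and 580 FPKM in Pax3 cells (log2 fold change 0.31, adjusted p = 0.12). The count of the list was 4 to 7 over the alternatives, with 4 without Q-GL- replicate 2. Pomc itself, the most abundant gene past the test, was at 8622 and 9158 FPKM in Q-GL- cells and 5112 and 6422 FPKM in Pax3 cells (log2 fold change 0.63, adjusted p = 0.013). That call was lost in 3 of the 4 fits that left out a library: the adjusted p was 0.078 and 0.13 without replicates 1 and 2 of Q-GL-, and 0.055 and 0.0018 without replicates 1 and 2 of Pax3. Pomc and Pcsk1 were the 2 of 7 corticotrope markers tested that changed.

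Granins and other proteins of dense-core granules, the vesicles that store peptide hormones, followed the same direction. Here 6 of 21 were higher and 0 lower, beside 3.84% and 0.804% of all genes tested, with a median of 0.22. Scg5, given above with the processing genes, is among these 6. Chga, chromogranin A, named after its values were seen, did not pass (log2 fold change 0.16, limma adjusted p = 0.39). It was at 1178 and 1225 FPKM in Q-GL- cells and 1010 and 1144 FPKM in Pax3 cells. Chgb (chr2:132781278-132795079), chromogranin B, was at 694 and 759 FPKM in Q-GL- cells and at 339 and 391 FPKM in Pax3 cells (log2 fold change 0.99, SE 0.09, limma adjusted p = 7.2e-05). Ptprn, the granule membrane protein IA-2, was at 42.4 and 43.1 FPKM in Q-GL- cells, against 31.2 and 30.6 FPKM in Pax3 cells. Scg2, secretogranin II, was at 107 and 106 FPKM in Q-GL- cells, against 68.8 and 80.6 FPKM in Pax3 cells, with an adjusted p of 0.0049 that was 0.050, no longer past the test, without Q-GL- replicate 1. The count of granule genes was 3 without that library.

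SNAREs, synaptotagmins and their partners, which fuse vesicles with the membrane, moved in both directions, 2 of 29 higher and 3 lower. Over all genes tested, 3.84% were higher and 0.804% lower. Sytl2, which tethers granules through Rab27, was at 6.80 and 6.88 FPKM in Q-GL- cells and 13.7 and 11.9 FPKM in Pax3 cells (log2 fold change -0.82, SE 0.09, limma adjusted p = 2.6e-04). Syt5 was at 16.4 and 15.2 FPKM in Q-GL- cells, against 23.1 and 23.2 FPKM in Pax3 cells. Syt1 and Syt11 rose by log2 fold changes of 0.40 and 0.38, and both calls were lost when either of the Q-GL- libraries or Pax3 replicate 1 was left out, with 0 of the 29 then higher.

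Lists of signalling genes are read beside the 4.64% of all genes tested that passed, 3.84% higher and 0.804% lower. Rgs4 was the only one of 14 regulators of G-protein signalling that rose, while Rgs10 fell, at 5.63 and 5.04 FPKM in Q-GL- cells and 8.44 and 8.13 FPKM in Pax3 cells. The Rgs10 call was lost when any of the 4 libraries was left out (adjusted p 0.058 to 0.20). In cyclic AMP signalling 4 of 28 rose, each by a log2 fold change of 0.33 to 0.37: the protein kinase A subunits Prkar1a, Prkar2b and Prkacb and the phosphodiesterase Pde4b. All 4 calls were lost when either of the Q-GL- libraries or Pax3 replicate 1 was left out. In Wnt, BMP and TGF-beta signalling 3 of 18 rose. Tgfb3, a TGF-beta ligand, was at 6.03 and 7.12 FPKM in Q-GL- cells, against 2.55 and 3.03 FPKM in Pax3 cells (log2 fold change 1.0). Bmp7, a BMP ligand, was at 4.33 and 4.09 FPKM in Q-GL- cells, against 1.75 and 2.37 FPKM in Pax3 cells. Of 28 voltage-gated and leak channels 2 rose, among them the leak potassium channel Kcnk3 by 0.40. The Kcnk3 call was also lost when any of the 4 libraries was left out, at log2 fold changes of 0.37 to 0.44.

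Muscle and neural crest genes, the classical territory of both factors, passed at a few members, beside 4.64% of all genes tested. Of 10 tested muscle-lineage factors and muscle targets of Pax3 and Pax7, 0 rose and 0 fell, with a median log2 fold change of -0.03. At an unadjusted limma p under 0.05, 1 was higher and 2 lower, beside 13.7% and 4.78% of all genes tested. Among 9 contractile and metabolic muscle genes, 2 rose: Mybpc1, given above, and Pygm, the muscle glycogen phosphorylase. Pygm was at 6.41 and 7.95 FPKM in Q-GL- cells and 1.91 and 2.06 FPKM in Pax3 cells (log2 fold change 1.45, adjusted p = 2.3e-04). Of 9 neural crest and melanocyte genes, 1 rose, the receptor tyrosine kinase Kit, with 5.77 and 5.88 FPKM in Q-GL- cells and 3.22 and 3.30 FPKM in Pax3 cells.

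Lmcd1 and Pde2a are loci that the study treats as sites of transcriptional action of Pax7. Lmcd1 gave no call, Pde2a was not tested, and Tfeb gave a call that was not stable. Tfeb, a regulator of lysosomal genes, was at 9.73 and 9.27 FPKM in Q-GL- cells and at 6.81 and 7.74 FPKM in Pax3 cells (log2 fold change 0.35, limma adjusted p = 0.048), a call lost in 9 of 17 alternatives, among them the fits leaving out Q-GL- replicate 1 (0.24) or 2 (0.15) or Pax3 replicate 1 (0.28). Lmcd1, a LIM-domain cofactor, was at 7.27 and 8.03 FPKM in Q-GL- cells and 5.59 and 6.43 FPKM in Pax3 cells, with a log2 fold change of 0.31 and an adjusted p of 0.11. Pde2a was listed at 0 in the 4 libraries, so it did not enter the test and may not have been quantified.

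Genes of the extracellular matrix included 4 of 17 that rose and 0 that fell, beside 3.84% and 0.804% of all genes tested. Beside Serpine2 and Timp2, these included Col18a1, a basement membrane collagen, at 10.1 and 10.4 FPKM in Q-GL- cells and 5.97 and 6.19 FPKM in Pax3 cells. Of the kallikreins and acid lipases, Klk14 and Lipn passed the filter through the Q-GL- libraries alone. Of the 3 others tested 1 rose, Klk10, by 0.46, and its call was lost without Q-GL- replicate 2 (0.32), without Pax3 replicate 1 (0.15) and without Pax3 replicate 2 (0.10). The list of MHC class I genes and Cd74 was mixed, with 2 of 14 higher and 1 lower. Cd74, which chaperones MHC class II molecules, was at 7.28 and 8.45 FPKM in Q-GL- cells and 3.64 and 4.45 FPKM in Pax3 cells, and its adjusted p of 0.0044 became 0.065 without Q-GL- replicate 2 and 0.054 without Pax3 replicate 1. H2-D1 rose by 0.44 and H2-T22 fell by 0.40 on the log2 scale. Both belong to a family of near-identical genes whose reads the counting may have split, and neither call held when either of the Q-GL- libraries was left out.

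The most abundant genes that rose after Pomc were metabolic or secretory. Pkm, pyruvate kinase, was at 1380 and 1444 FPKM in Q-GL- cells and at 885 and 1085 FPKM in Pax3 cells. Bsg, the chaperone basigin of lactate transporters, was at 1288 and 1331 FPKM in Q-GL- cells, against 668 and 830 FPKM in Pax3 cells. Ldha, lactate dehydrogenase, was at 1034 and 1130 FPKM in Q-GL- cells, against 743 and 887 FPKM in Pax3 cells. Pax3 replicate 1 was the lowest library in each case. The Pkm call, at a log2 fold change of 0.53, was lost in 5 of 17 alternatives, with limma adjusted p = 0.094 and 0.15 without replicates 1 and 2 of Q-GL- and 0.092 without Pax3 replicate 1, and its lowest log2 fold change was 0.28. The Ldha call, at 0.41, was lost in 9 of 17, quantile normalization among them, with adjusted p = 0.12 and 0.28 without replicates 1 and 2 of Q-GL- and 0.18 without Pax3 replicate 1, and its lowest value was 0.23. Bsg remained past the test in every alternative, at 0.81 in the full comparison.

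Among the 97 genes that were lower in Q-GL- cells, the largest decrease was in Atp6v1c2 (chr12:17284721-17329359), a tissue-restricted C subunit of the vacuolar proton pump, with 2.96 and 3.72 FPKM in Q-GL- cells and 8.93 and 7.45 FPKM in Pax3 cells. Its log2 fold change was -1.08 (SE 0.14, limma adjusted p = 7.1e-04). Ddc, aromatic L-amino acid decarboxylase, was the lower gene of highest expression among the 15 largest decreases, with 73.6 and 78.6 FPKM in Q-GL- cells and 113 and 134 FPKM in Pax3 cells (log2 fold change -0.68). Both genes passed the test in every alternative. Fam81a was at 3.88 and 3.69 FPKM in Q-GL- cells, against 6.68 and 7.27 FPKM in Pax3 cells, and also passed in every alternative.

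Other decreases were less secure. Ppargc1a, the coactivator PGC-1alpha, was at 1.46 and 1.78 FPKM in Q-GL- cells, against 4.38 and 2.83 FPKM in Pax3 cells, with an adjusted p of 0.035 from limma that became 0.21 and 0.12 without replicates 1 and 2 of Q-GL-, and 0.25 without Pax3 replicate 1. Gata2, a pituitary transcription factor, was at 5.49 and 4.10 FPKM in Q-GL- cells, against 9.11 and 6.87 FPKM in Pax3 cells, and its adjusted p of 0.027 became 0.23 without Q-GL- replicate 2 and 0.21 without Pax3 replicate 1. Epha5, an ephrin receptor, was at 6.33 and 5.73 FPKM in Q-GL- cells and 9.58 and 9.56 FPKM in Pax3 cells, with an adjusted p of 0.0043 that became 0.061 without Q-GL- replicate 2. Gata2 was the only one of 17 pituitary lineage factors tested that fell, and Pax7 the only one that rose. Of the 33 genes of cholesterol and fatty acid synthesis, 3 fell and 0 rose, beside 0.804% and 3.84% of all genes tested. After quantile normalization, 389 of all 12067 genes tested were lower. Lss, lanosterol synthase, was at 54.0 and 60.8 FPKM in Q-GL- cells, against 82.5 and 82.8 FPKM in Pax3 cells, and Idi1 and Mvk fell by 0.38 and 0.36 on the log2 scale. The list kept 0 calls without Q-GL- replicate 1, where Lss had an adjusted p of 0.070, 1 call without any other library, and 8 calls after quantile normalization.

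Type I interferon response genes formed the list with the most members that fell. Of 20 tested, 7 fell and 0 rose, beside 0.804% and 3.84% of all genes tested. The median log2 fold change was -0.47 against 0.04 over all genes tested, and 18 of the 20 had a negative value. Rsad2 and Oasl2 passed the filter through the Pax3 libraries alone and did not pass the test. Without them 7 of 18 fell, with a median of -0.46. Irf7 (chr7:141262706-141266481), a transcription factor that amplifies the response, was at 6.26 and 5.93 FPKM in Q-GL- cells and 10.3 and 10.0 FPKM in Pax3 cells (log2 fold change -0.65, SE 0.10, limma adjusted p = 0.0031). Bst2, the antiviral membrane protein tetherin, was at 12.8 and 14.6 FPKM in Q-GL- cells, against 19.9 and 22.5 FPKM in Pax3 cells. Isg15, a ubiquitin-like modifier, was at 8.08 and 7.02 FPKM in Q-GL- cells, against 11.5 and 11.9 FPKM in Pax3 cells. In each of these genes both Q-GL- libraries lay below both Pax3 libraries, as at 15.1% of all genes tested and at all 97 lower genes. Usp18, the protease that removes Isg15, fell by 0.59 on the log2 scale. The remaining lower members, named after their values were seen, were the paralogues Oas1a and Oas1g, whose reads may be shared, and Stat2, at log2 fold changes of -0.60, -0.51 and -0.38. The list had 13 lower genes after quantile normalization and 11 after median centring, 3 and 2 without replicates 1 and 2 of Q-GL-, and 4 without either of the Pax3 libraries. Of all 12067 genes tested, 389 were lower after quantile normalization and 230 after median centring. Irf7 and Bst2 passed in every alternative. Isg15 did not pass without Q-GL- replicate 2 (adjusted p = 0.13) or without Pax3 replicate 1 (0.059), and of the fits that left out a library Usp18 passed only in that without Pax3 replicate 1.

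The promoters of 4 of these genes are shown because they hold the letters of the interferon-stimulated response element, a sequence through which type I interferons act on their target genes. Each line gives the 250 bases before the transcript start from RefSeq (GRCm38.p6), on the gene's strand, with each match to GAAA, any 2 bases and GAAA again, or to its reverse complement, in capitals. They lie at chr4:156200819-156201068 (minus strand) for Isg15, chr8:71537473-71537722 (minus) for Bst2, chr5:120907526-120907775 (minus) for Oas1a and chr10:128270248-128270497 (plus) for Stat2:
Isg15: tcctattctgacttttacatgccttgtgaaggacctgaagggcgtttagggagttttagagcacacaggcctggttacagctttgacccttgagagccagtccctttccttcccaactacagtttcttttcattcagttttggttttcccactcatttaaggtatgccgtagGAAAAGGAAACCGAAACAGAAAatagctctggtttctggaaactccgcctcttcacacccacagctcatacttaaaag
Bst2: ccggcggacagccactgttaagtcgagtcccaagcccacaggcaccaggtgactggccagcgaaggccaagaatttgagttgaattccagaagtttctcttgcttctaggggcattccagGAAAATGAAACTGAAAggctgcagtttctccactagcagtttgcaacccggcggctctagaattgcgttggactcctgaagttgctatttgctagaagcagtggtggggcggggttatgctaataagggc
Oas1a: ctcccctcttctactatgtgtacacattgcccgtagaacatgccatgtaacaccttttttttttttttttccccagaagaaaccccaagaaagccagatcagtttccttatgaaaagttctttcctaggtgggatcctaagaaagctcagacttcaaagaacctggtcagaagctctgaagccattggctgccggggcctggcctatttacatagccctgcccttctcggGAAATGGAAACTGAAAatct
Stat2: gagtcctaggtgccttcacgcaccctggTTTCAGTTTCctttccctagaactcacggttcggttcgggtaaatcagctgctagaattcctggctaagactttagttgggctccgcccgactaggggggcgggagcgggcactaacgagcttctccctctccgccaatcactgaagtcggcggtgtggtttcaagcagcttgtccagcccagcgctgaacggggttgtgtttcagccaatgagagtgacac
The matches of Isg15 and Oas1a begin 78 and 20 bases before the start, that of Bst2 130 bases and that of Stat2 222 bases before it, and where 2 or 3 matches overlap the capitals run together. Promoter windows, 250 bases before to 50 after the start, were available for 9091 of the 12067 genes tested, or 75.3%. This pattern, on either strand, occurred in windows of 3.24% of these genes. It occurred in 5 of the 6 lower interferon genes that had a window, in 9 of the 16 interferon genes tested that had one, in 7 of 76 lower genes and in 18 of 356 higher genes. The 7 include the same 5 interferon genes, among them the paralogues Oas1a and Oas1g. The others of the 7 are Gm13073 and H2-T22. The window of Irf7 held no match.

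The same windows were searched for letters that Pax proteins are known to bind, on both strands. The homeodomain palindrome of TAAT, any 2 bases and ATTA occurred at 0 of 356 higher genes, 0 of 76 lower genes and 15 of all 9091, and the same with 3 bases between at 1 higher gene (Atf3), 0 lower genes and 19 of all. The paired-domain half-site GTCACGC occurred at 17 of 356 higher genes (4.78%), 1 of 76 lower genes (Pcdh9) and 4.70% of all genes. The share among higher genes was thus close to that of all genes. Enhancers were not searched.

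Lists of general cell functions showed few or no calls, beside 3.84% higher and 0.804% lower of all genes tested. Of 40 cell cycle genes, 36 chromatin remodelers, 30 genes of the respiratory chain and 27 of protein folding in the endoplasmic reticulum, 0 passed the test in either direction. At an unadjusted p under 0.05 in limma these lists held 2 higher and 5 lower, 1 and 1, 1 and 1, and 2 and 0 genes. Over all genes tested, 13.7% were higher and 4.78% lower at that threshold. After quantile normalization 5 cell cycle genes, 4 respiratory chain genes and 4 of the 17 housekeeping genes were lower. In that fit 389 of all 12067 genes tested were lower. Of the housekeeping genes 1 rose, Pgk1, a glycolytic kinase, at 243 and 255 FPKM in Q-GL- cells and 153 and 199 FPKM in Pax3 cells, and its adjusted p of 0.029 became 0.12 and 0.18 without replicates 1 and 2 of Q-GL-, and 0.18 without Pax3 replicate 1. Of 19 immediate early genes 3 rose, Btg2, Dusp1 and Atf3, by 0.45 to 0.46. Their number was 1 and 0 without replicates 1 and 2 of Q-GL-, and 1 without Pax3 replicate 1. In the Notch pathway 1 of 16 rose, Hey1 by 0.48, and among 31 axon guidance genes Ephb2 rose by 0.34 and Epha5 fell. The calls of Hey1 and Ephb2 were each lost when either of the Q-GL- libraries or Pax3 replicate 1 was left out. Over all 17 alternatives the Hey1 call was lost in 11, median centring and a pseudocount of 0.1 among them, and the Ephb2 call in 5. Those of Atf3, Dusp1 and Btg2 were lost in 10, 7 and 1 of the 17.

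**Figure D3:**
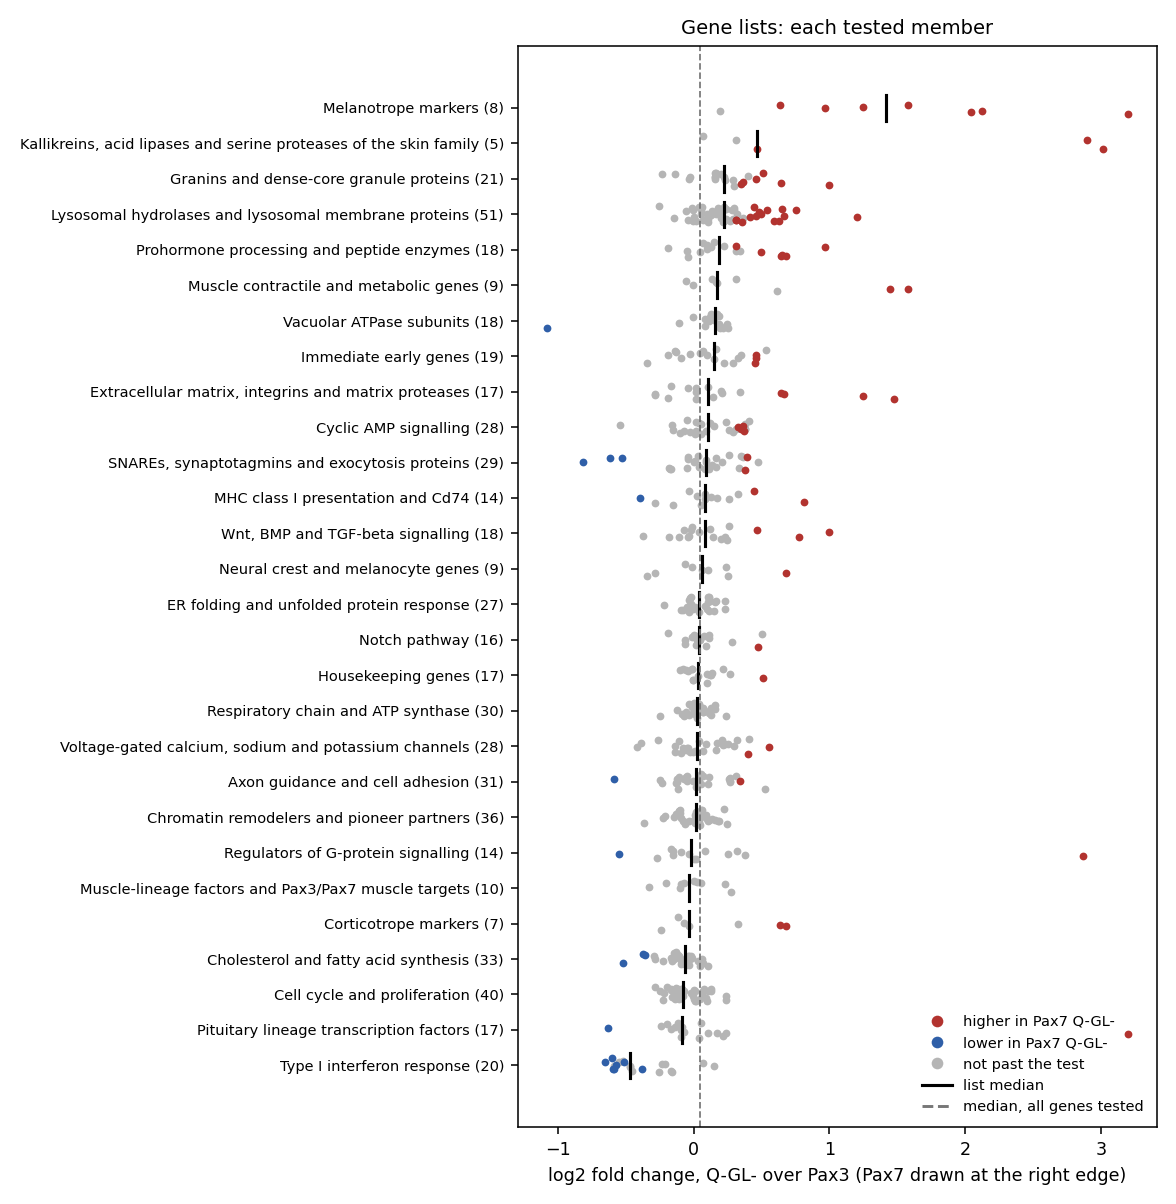
Log2 fold change of Q-GL- over Pax3 cells (horizontal axis) for every tested member of the lists with at least 5 tested genes, lists ordered by their median, with the number tested in brackets. Red members were higher, blue lower and grey did not pass the test, black bars are list medians and the dashed line is the median of all genes tested, 0.04. The melanotrope list has the highest median, 1.41, and the interferon list the lowest, -0.47.

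The other groups of the series place these levels. Pax7-465 ends at residue 465, Q-GL+ and Q+GL+ carry the GL pair, and the NoTag libraries, which carry no statement of Q or GL, stand apart with 733 genes listed above 0 in them alone. Rgs4 averaged 20.2 FPKM in Q-GL- cells, against 1.92 FPKM in Pax3 cells, and was at 5.52, 18.1, 1.76 and 2.09 FPKM in Pax7-465, NoTag, Q-GL+ and Q+GL+ cells. Oacyl averaged 10.9 FPKM in Q-GL- cells, against 1.89 FPKM in Pax3 cells, with 7.39, 6.78, 4.22 and 2.41 FPKM in the same 4 groups. For Rgs4 and Oacyl the Pax3 level thus stood beside the levels of the Q+GL+ cells. Pcsk2 was at 36.2 FPKM in Q-GL- and 18 FPKM in Pax3 cells, with 21.4, 65.3, 15.8 and 12.1 FPKM in the other groups, so Pax3 cells were above both GL+ groups. Irf7 was at 6.09 FPKM in Q-GL- and 10.2 FPKM in Pax3 cells, with 6.67, 6.60, 8.41 and 7.95 FPKM in the others, and Isg15 at 7.55 FPKM in Q-GL- and 11.7 FPKM in Pax3 cells, with 10.4, 6.56, 14.1 and 8.36 FPKM. Pax3 cells had the highest mean of the 6 groups for Irf7 and Q-GL+ cells for Isg15. No test was made on these other groups.

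**Figure D4:**
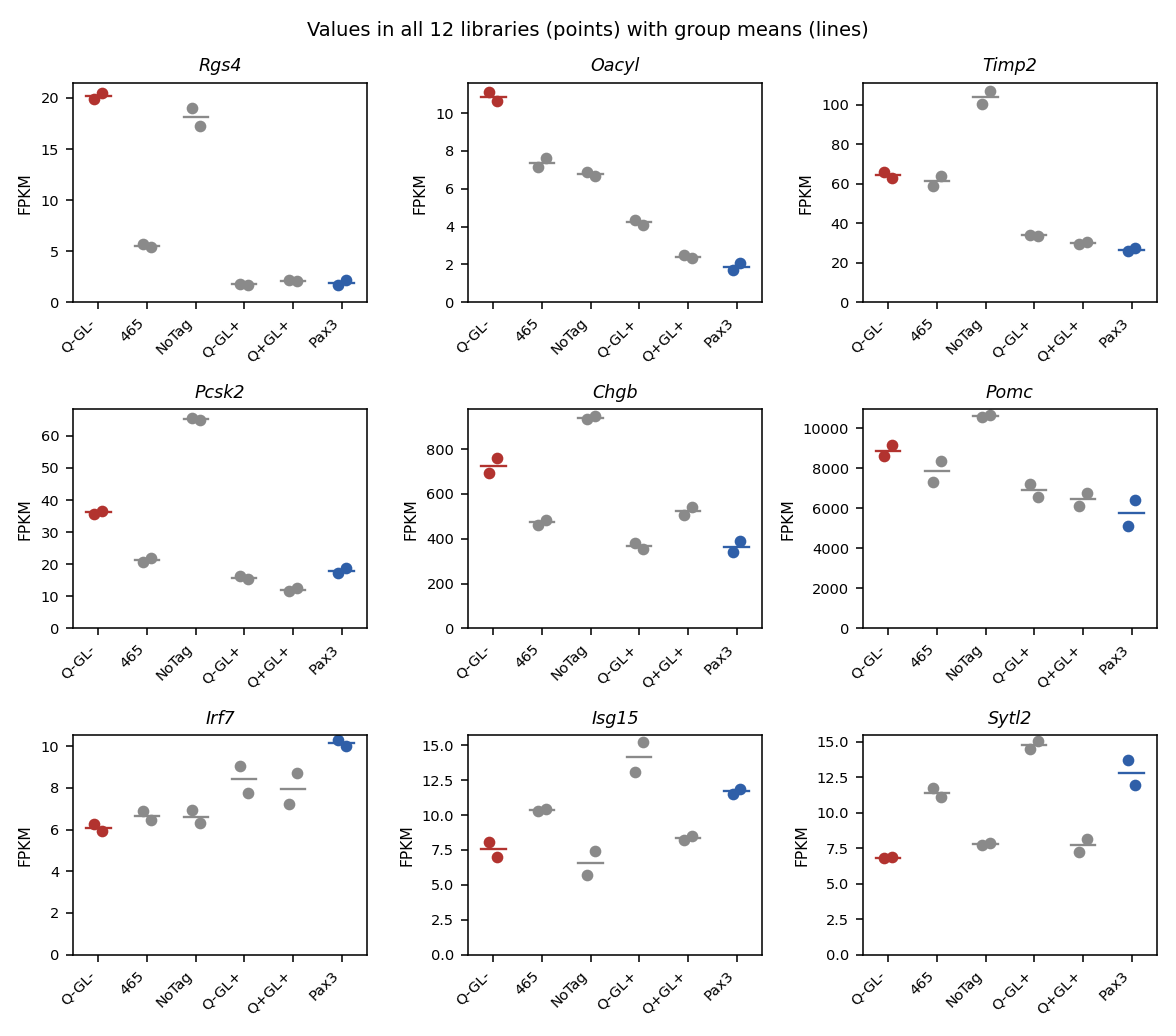
FPKM of 9 genes in all 12 libraries, 2 points per group with the group mean as a line, Q-GL- cells in red at the left and Pax3 cells in blue at the right of each panel. Rgs4, Oacyl, Timp2, Pcsk2, Chgb and Pomc are higher, and Irf7, Isg15 and Sytl2 lower, in both Q-GL- libraries than in both Pax3 libraries; the grey groups between them are Pax7-465, NoTag, Q-GL+ and Q+GL+.

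The position of the genes was compared with the order of all genes tested along the chromosomes. Of the 463 higher genes, 66 (14.3%) had another higher gene as a direct neighbour, and of all genes tested 7.46% had one. There were 36 such pairs, among them, named after their values were seen, Lamb3 with Hsd11b1 and G0s2 in a row, Grb7 with Ormdl3, Gsdma2 and Gsdma in a row, Timp2 with Lgals3bp, and Ahsg with Fetub. Gsdma2 and Gsdma are near-identical copies. Among the 97 lower genes the only such pair was Oas1g and Oas1a.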

How the data were processed

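RNA of AtT-20 cells was sequenced by the authors as strand-specific paired-end libraries. Per the labels and methods, Trimmomatic was used for read trimming, TopHat2 for mapping to Ensembl GRCm38 and HOMER for quantification per gene, and the authors deposited FPKM. The total used for scaling, and whether genes were filtered, is not given in the sources used here. The table used here holds FPKM only, so no count model was run. Columns of values that match no analysed sample, 4 in number, were not used. Values were taken as log2(FPKM + 1), keeping genes that reached 1 FPKM in 2 or more of the 4 libraries. A robust limma-trend model with 1 coefficient per group was fitted to all 12 libraries, and Q-GL- was contrasted with Pax3 at a Benjamini-Hochberg adjusted p under 0.05 (R 4.3.3, limma 3.58.1, statmod 1.5.0; Python 3.11.15, pandas 2.3.3, numpy 2.4.6, matplotlib 3.10.9). The fit was tested on simulated data. Read depth was estimated from the smallest values times the exonic length, and is approximate.

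The comparison, gene lists and naming rule were chosen with earlier results of these data known. Named are, per direction, the 15 called genes of largest log2 fold change whose higher group averaged 1 FPKM or more and whose groups did not overlap, up to 4 members per list with the smallest adjusted p, Pax7, Pax3, Tbx19, Pomc, Pcsk2, Lmcd1 and Pde2a, and the 5 most abundant genes past the test per direction; others are named as chosen after their values were seen. Starts were changed to count from 1. A few genes that the rule selects are not reported here.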

Additional observations from a re-analysis of the deposited data

How the results depend on the processing

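The 560 genes past the test, 463 higher and 97 lower in Q-GL- cells, numbered 940 after quantile normalization (389 lower) and, after median centring, included 230 lower genes. They numbered 45 when an absolute log2 fold change of 1 was also required (44 higher, 1 lower) and 236 at an adjusted p under 0.01 (208 higher, 28 lower). Leaving out 1 library gave 192 to 770 genes, 167 to 701 higher and 25 to 69 lower. Of the 560, 541 were also called after quantile normalization, 225 and 187 without Q-GL- replicates 1 and 2, and 216 and 450 without Pax3 replicates 1 and 2; the cause was not tested. With 1 library left in a group, that library is assumed to vary like those of the other groups. Deviations of same-numbered libraries from their group means correlated at -0.0099, within -0.16 to 0.20 over the 15 pairs of groups. The value shows no shared deviation, but cannot tell whether same-numbered libraries were prepared together. The replicate block gave 683 genes in the 4 libraries, 159 of them lower, and 521 in the 12 libraries. Without the NoTag libraries 446 genes passed, 440 of them among the 560. With only the groups compared 576 passed, 454 of them among the 560. Of the 84 genes that the naming rule selects, 82 passed the test, 37 of these in every alternative that tested them, and 45 were lost in at least 1 of 17 alternatives, 26 of them only where a library was left out. Of the 560 genes, 0 had the opposite direction in any of the 17 alternatives, but most of these fits could not have turned it. At all 463 higher and 97 lower genes the libraries of the groups did not overlap, so leaving out 1 library keeps the direction. Only quantile normalization and median centring could have shown another direction. Precision is limited by 2 libraries per group, and no read counts were used.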

Other observations

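Lysosomal genes, a list put together after the values were seen and so untested as a list, also differed between Q-GL- and Pax3 cells. Of 51 tested, 15 rose and 0 fell in Q-GL- cells, beside 3.84% and 0.804% of all genes tested. The median log2 fold change was 0.22 against 0.04 over all genes tested. Galns, the sulfatase that degrades keratan sulfate, was at 16.6 and 17.6 FPKM in Q-GL- cells and 5.93 and 7.90 FPKM in Pax3 cells (log2 fold change 1.2). Lgmn, legumain, a protease of the lysosome, was at 40.4 and 40.6 FPKM in Q-GL- cells, against 21.1 and 26.3 FPKM in Pax3 cells. Hexa, which degrades gangliosides, was at 88.2 and 89.4 FPKM in Q-GL- cells, against 55.0 and 66.8 FPKM in Pax3 cells, and Pld3 at 407 and 416 FPKM, against 256 and 293 FPKM. Pax3 replicate 1 was the lowest library for each of these 4 genes. The count was 7 and 4 without replicates 1 and 2 of Q-GL-, and 5 and 20 without replicates 1 and 2 of Pax3. Of 18 subunits of the vacuolar proton pump, also listed after the values were seen, 0 were higher and 1, Atp6v1c2, was lower. Of the 18, 15 had a positive value and 3 a negative one, and the share of positive values over all genes was not counted. Their median log2 fold change was 0.16, against 0.04 over all genes tested. After quantile normalization these medians were 0.074 and -0.012. At an unadjusted limma p under 0.05, 6 were higher and 1 lower, beside 13.7% and 4.78% of all genes tested.

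Several snoRNA genes had wide differences that did not pass the test. Snord49b was at 1247 and 1522 FPKM in Q-GL- cells and was listed at 0 in both Pax3 libraries, with a limma adjusted p of 0.26. Gm24494 was at 506 and 530 FPKM in Q-GL- cells and was listed at 0 in both Pax3 libraries, with an adjusted p of 0.25. In other groups of the series the 2 libraries differed as widely: Snord49b was listed at 0 and 1127 FPKM in the Q+GL+ libraries. An exact 0 of so short a gene may be a failed estimate.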
